A study of Mus musculus with 24 samples.

Results

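Protein-protected sites (PPSs) on the exons of long noncoding RNAs (lncRNAs) were examined in differentiating MEL cells. A PPS is a stretch of RNA that was less accessible to an RNase while proteins were still cross-linked to it than after the proteins had been digested away. A PPS was taken as lncRNA-exonic when it overlapped an exon of a lncRNA, lincRNA, antisense, processed_transcript or sense_intronic gene by at least 1 nt on the same strand (GENCODE annotation, mm10) and lay in no protein-coding gene body on that strand. Sites of 20 to 40 nt were left out. This gave 3023 of the 356432 PPSs of the 3 days, with 1039 of 114907 at day 0, 1027 of 119487 at day 2 and 957 of 122038 at day 4.

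MEL cells are an established mouse erythroleukemia cell line that proceeds towards the late red-cell stages when DMSO is added. Cells were collected 0, 2 and 4 days after induction with DMSO, day 0 being the uninduced state, and all of them were cross-linked with formaldehyde. Each of the 2 replicates of a day was split into a protein-bound and a structure-only portion, and each portion was digested with a single-stranded RNase (ssRNase, RNaseONE) or a double-stranded RNase (dsRNase, RNase V1), which gave 24 libraries and 12 sets of PPS calls (3 days by 2 nucleases by 2 replicates). A single cell line is a limited model of erythropoiesis, and the labels do not say whether the days came from the same cultures, so the spread between samples may be partly technical.

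LncRNAs are transcripts with little or no coding capacity. Some, such as Malat1 and Neat1, stay in the nucleus, where they gather at speckles or build paraspeckles with RNA-binding proteins. Kcnq1ot1 silences an imprinted gene cluster in cis. Others are hosts, whose introns or exons hold small RNAs: box C/D and H/ACA snoRNAs, which guide rRNA modification, or miRNAs such as the miR-17-92 cluster, a regulator of blood-cell growth. Still others, such as Norad, act as platforms for cytoplasmic proteins.

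The lists held merged intervals with a score given by the study and the names of the calls in each. A PPS counted here for every call set with a call anywhere in it, so the coverage of a set is an upper bound. Read depth per site was not in the lists, and confidence intervals cover counting error only. In bulk samples, fewer cells and less RNA per cell cannot be told apart, and a change in a PPS cannot be told apart from a change in transcript level.

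A pair of call sets stood apart by strand. Plus-strand sites made up 66.9% of all PPSs in the day 0 ssRNase set of replicate 2 and 43.1% in the day 4 ssRNase set of replicate 2, against 50.3% to 52.0% in the other 10 sets. On lncRNA exons the same sets held 44.1% and 27.4% plus-strand sites, against 33.1% to 42.9%. Values without these sets or within a strand are therefore given below. As a check of the cell label, 10, 11 and 12 of 12 erythroid marker genes held an exonic PPS at days 0, 2 and 4, with a summed coverage of 194, 367 and 565 percentage points. Of 4 T cell, 3 B cell, 3 fibroblast, 2 neuron and 2 hepatocyte markers, none held a PPS on any day.

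Among constant sites of at most 300 nt, the highest-scoring lay on snoRNAs. At day 0, 15 sites on 7 genes had calls of both nucleases in both replicates and overlapped sites of the same kind at both later days. The 5 with the highest scores, of at most 300 nt and 1 per gene, are printed below from the mm10 (GRCm38) genome, 5′ to 3′ on the strand of the RNA, because they show what such a site consists of. Capitals mark the bases of an annotated snoRNA gene. The Gas5 site (chr1:161036649-161036900, plus strand, 252 nt, score 126.65) holds Gm23212, the Snhg1 site (chr19:8723859-8724132, plus strand, 274 nt, score 68.76) holds Gm25855, the Snhg5 site (chr9:88521487-88521650, minus strand, 164 nt, score 52.91) holds Snord50a, the Snhg12 site (chr4:132309449-132309642, plus strand, 194 nt, score 46.34) holds Snora16a, and the 9330159M07Rik site (chr9:88857666-88857814, minus strand, 149 nt, score 46.31) holds Gm26135.
Gas5: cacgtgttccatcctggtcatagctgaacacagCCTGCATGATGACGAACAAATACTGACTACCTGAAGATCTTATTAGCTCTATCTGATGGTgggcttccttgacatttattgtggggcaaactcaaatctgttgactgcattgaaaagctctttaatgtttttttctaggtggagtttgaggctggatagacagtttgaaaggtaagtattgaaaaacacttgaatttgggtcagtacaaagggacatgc
Snhg1: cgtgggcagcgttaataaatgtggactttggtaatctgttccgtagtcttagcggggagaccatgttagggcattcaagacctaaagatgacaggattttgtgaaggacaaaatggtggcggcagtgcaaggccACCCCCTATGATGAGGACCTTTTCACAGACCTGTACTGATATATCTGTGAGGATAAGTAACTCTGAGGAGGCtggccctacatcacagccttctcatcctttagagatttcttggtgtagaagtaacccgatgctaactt
Snhg5: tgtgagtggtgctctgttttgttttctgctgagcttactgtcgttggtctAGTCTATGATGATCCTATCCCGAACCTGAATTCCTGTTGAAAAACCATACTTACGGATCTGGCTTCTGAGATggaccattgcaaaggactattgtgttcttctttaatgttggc
Snhg12: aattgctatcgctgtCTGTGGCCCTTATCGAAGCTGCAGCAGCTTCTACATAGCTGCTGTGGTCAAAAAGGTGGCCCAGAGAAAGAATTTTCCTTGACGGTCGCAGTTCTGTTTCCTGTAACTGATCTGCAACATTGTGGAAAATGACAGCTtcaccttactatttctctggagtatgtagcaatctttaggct
9330159M07Rik: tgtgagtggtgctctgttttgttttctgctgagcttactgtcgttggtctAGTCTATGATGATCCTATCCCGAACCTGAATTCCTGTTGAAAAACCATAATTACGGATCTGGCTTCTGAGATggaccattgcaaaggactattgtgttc

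In each of the 5, the site was longer than the snoRNA and ran into the flanking host sequence. The snoRNA made up 60 nt of the Gas5 site, 72 nt of the Snhg1, Snhg5 and 9330159M07Rik sites and 137 nt of the Snhg12 site. The Snhg5 and 9330159M07Rik sites were identical at 148 of the 149 positions they share, the exception being C100A (the Snhg5 base first, counted from the 5′ end of the site). Since reads with up to 10 placements were kept by the study, signal at these 2 loci cannot be assigned to either with certainty.

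Protected sites were spread over few genes. Of 9930 annotated genes of these types, 326 held a PPS: 215 at day 0, 228 at day 2 and 201 at day 4. Sites recurred on every day for 121 genes. They were seen in uninduced cells but not later for 52 genes, and first after induction for 111. The latter count draws on both later days and the former on a single day, so they are not like for like. Matched shares over all genes were not computed. A single PPS was found on 104 genes, while 66 genes held 10 or more. Kcnq1ot1 alone held 17.2% of the PPSs, and the first 10 genes held 40.4%. By type, 151 of the genes were lincRNAs, 89 processed transcripts and 86 antisense genes, and none of 327 sense_intronic genes held a PPS.

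Some of these genes are not lncRNAs in RefSeq. There, 19 of the 326 genes (110 PPSs) are protein-coding, 6 are transcribed pseudogenes (60 PPSs), Rmrp is the RNA of RNase MRP, 1 more gene is the RNA of RNase P, and Gm42418 is an rRNA pseudogene, Rn18s-rs5. A further 107 genes had no RefSeq match. On the same strand, 47, 57 and 58 PPSs of days 0, 2 and 4 overlapped an exon of a RefSeq mRNA, and 40, 49 and 46 lay opposite a protein-coding exon. Along the spliced transcript, sites lay towards the 5′ end: 49.4%, 47.4% and 45.3% of them fell in the first of 3 equal parts at days 0, 2 and 4, and 19.2%, 19.6% and 22.0% in the last. Without Kcnq1ot1 the first part held 47.2%, 44.5% and 41.3%.

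The share of all PPSs that lay on lncRNA exons was lower at day 4 than at day 0. In uninduced cells 0.904% of the sites lay there (Wilson interval at 95%, 0.851% to 0.961%). After 2 days of DMSO the share was 0.860% (interval 0.809% to 0.913%), and after 4 days 0.784% (interval 0.736% to 0.835%). From day 0 to day 4 the difference was −0.120 percentage points (Newcombe interval −0.194 to −0.0464), and each of the 4 possible pairings of replicates gave a value between −0.161 and −0.139. From day 0 to day 2 it was −0.0447 points (−0.121 to 0.0310; pairs −0.0777 to −0.0441). With 2 replicates against 2, the smallest two-sided permutation p is 0.333, so no test was made. Sites of a day are merged across its 2 replicates, so the pairings are not independent and their ranges may be too narrow.

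Both nucleases gave a lower share at day 4. By set, the ssRNase share was 1.21% and 1.17% in the day 0 replicates, 1.15% and 0.988% at day 2, and 1.15% and 1.08% at day 4. The dsRNase share was 0.904% and 1.01% at day 0, 0.941% and 1.18% at day 2, and 0.799% and 0.831% at day 4. In dsRNase calls the day 4 difference was −0.182 points (−0.287 to −0.0810; pairs −0.209 to −0.0735), and in ssRNase calls −0.0468 points (−0.145 to 0.0525; pairs −0.127 to −0.0178). The pairs of both nucleases overlapped, and the difference between nucleases was not tested. The number of lncRNA sites with a dsRNase call was 474 at day 0 and 585 at day 4, while all PPSs with such a call numbered 51107 and 78496, so the share was lower although the count was higher.

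**Figure D1:**
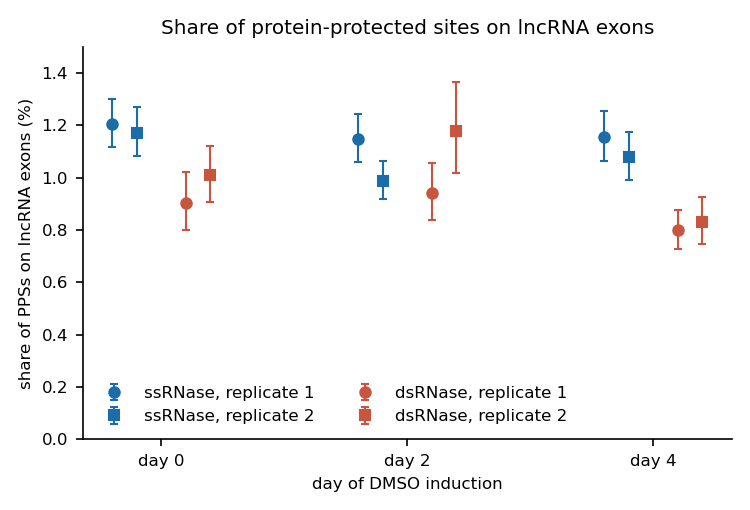
Share of PPSs that lie on lncRNA exons (y axis, %) in each of the 12 call sets by day of DMSO induction (x axis). Points are call sets, circles replicate 1 and squares replicate 2, blue ssRNase and red dsRNase, with 95% Wilson intervals. In 5 of 6 replicates the dsRNase share lies below the ssRNase share, the exception being day 2 replicate 2 (1.18% against 0.988%).

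Within a replicate, the dsRNase share was lower than the ssRNase share in 5 of 6 cases, by −0.181 ± 0.194 points (mean ± SD, n = 6), which did not pass an exact two-sided sign-flip permutation test (p = 0.09375; the smallest possible with 6 is 0.03125). It was −0.0231 points on the plus strand (exact permutation p = 0.594) and −0.390 on the minus strand (exact permutation p = 0.0625). Sites of a day are merged across its 2 replicates, so p-values over 6 replicates are too small. The 2 nucleases differed in which lncRNA sites they gave. Of the lncRNA sites of a set, Kcnq1ot1 held 18.1% with ssRNase and 15.1% with dsRNase (difference −3.00 ± 2.18 points, lower in 6 of 6), and snoRNA host genes held 16.2% and 22.7% (6.56 ± 5.54 points, higher in 6 of 6). Sites with a dsRNase call were also longer (median 95.3 against 85 nt), had less GC (44.9% against 47.6%) and more repeat bases (6.31% against 5.37%), each in 6 of 6 replicates (exact permutation p = 0.03125, Benjamini-Hochberg adjusted p = 0.0375 over 6 measures, for all 5 differences). The share of sites that ran beyond the exon was 11.4% and 14.9% (lower with dsRNase in 5 of 6, exact permutation p = 0.0625). These 6 measures were chosen after the data had been seen. Sites with calls of both nucleases count on both sides, and made up 30.3%, 28.1% and 36.7% of the lncRNA sites at days 0, 2 and 4. Sites with ssRNase calls only made up 54.4%, 62.9% and 38.9%, and with dsRNase calls only 15.3%, 8.96% and 24.5%. Sites of both nucleases thus weigh more on the dsRNase side, and their part in these differences was not tested.

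Coverage of a gene is used below for the percentage of its exonic nucleotides that lay in a PPS. A gene is called higher, or lower, at a later time when both replicates of that day lay above, or below, both replicates of day 0. A merged site with calls of both replicates counts whole for each, so the replicates of a day are not independent. Equal values in both replicates can come from the same merged sites. At day 4, 61 of the 326 lncRNA genes (18.7%) were higher and 85 (26.1%) were lower, while over all 9876 genes with an exonic PPS 30.4% were higher and 25.4% lower. At day 2, 51 (15.6%) were higher and 76 (23.3%) lower, against 22.1% and 30.2% of all genes. Median coverage of the lncRNA genes was 3.14%, 3.26% and 2.16% at days 0, 2 and 4.

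These counts moved with the strand and the nuclease. On the plus strand, 18 of 166 lncRNA genes were higher at day 4 and 54 lower (all genes 25.2% and 29.3%), and on the minus strand 43 of 160 were higher and 31 lower (35.8% and 21.5%). With dsRNase calls alone, in which all PPSs were even by strand, 37 lncRNA genes were higher and 24 lower (26.7% and 17.1% of all genes). On the plus strand these were 14 and 14 of 166 (all genes 25.4% and 17.5%), and on the minus strand 23 and 10 of 160 (28.0% and 16.7%). With ssRNase calls alone, 51 were higher and 75 lower (22.0% and 21.4%). Without the ssRNase sets of replicate 2 at days 0 and 4, which leaves that replicate with dsRNase calls, 27 were higher and 37 lower (19.9% and 17.4%). With all calls, the share of lncRNA genes called lower was thus near the background, and the part of the strand difference in these calls was not tested.

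Nuclear and imprinted lncRNAs held the largest numbers of sites. Of 16 such genes on the list used here, 6 held a PPS: Kcnq1ot1, Neat1, Tug1, Firre, 2900097C17Rik (Norad) and Malat1. Between days 0 and 4, coverage was higher for 4 of them, lower for Malat1 and neither for Kcnq1ot1. Among all genes 30.4% were higher and 25.4% lower, and all 6 genes lie on the minus strand, where 35.8% and 21.5% were. The median of the 6 went from 24.3% through 21.3% to 39.7%. Norad was counted on this list although it is known as a mainly cytoplasmic RNA. The list was drawn up with earlier results of these data known, so its counts are not independent of them. Xist and H19 were among the 10 genes of the list with no site on any day.

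Kcnq1ot1 (chr7:143203458-143296549, minus strand), an antisense RNA of 93092 exonic nt, held 185, 166 and 168 sites at days 0, 2 and 4. Its coverage was 14.7% and 13.0% in the day 0 replicates, 12.01% and 12.7% at day 2, and 13.4% and 13.5% at day 4. The day 4 values lay between those of day 0, and the day 2 values were below both. By nuclease they went apart: ssRNase coverage was 13.8% and 10.8% at day 0 and 10.5% and 12.3% at day 4, while dsRNase coverage was 4.05% and 5.17%, then 7.85% and 6.34%, higher in every pair. Its sites were set towards the 5′ end, with 110, 68 and 7 of those of day 0 in the first, middle and last of 3 equal parts of the transcript. At day 4, 14 of its sites had calls of both nucleases in both replicates, against 2 at day 0.

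Neat1 (chr19:5824708-5845478, minus strand), the scaffold of paraspeckles, had a coverage of 27.6% and 24.9% at day 0, 21.9% and 25.8% at day 2, and 37.8% and 37.7% at day 4. Day 4 stood above both earlier days in each replicate. The same order held for each nuclease: ssRNase coverage was 27.2% and 23.3% at day 0 and 35.5% and 33.2% at day 4, and dsRNase coverage was 10.1% and 13.3%, then 21.6% and 24.7%. Over 3 equal parts of the RNA, the first held 26 sites at day 0 and 29 at day 4, the middle 21 on both days, and the last 11 and then 24, so the net gain in number lay mostly in the last part.

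Tug1, Firre and Norad showed the same direction. Tug1, a lincRNA whose gene is antisense in the annotation, rose from 8.30% and 10.1% at day 0 to 21.5% and 24.1% at day 4. Firre, an X-linked RNA that organizes chromatin in the nucleus, went from 16.6% and 12.8% to 34.7% and 33.3%. Norad, a cytoplasmic RNA that guards genome stability, went from 28.4% and 23.4% at day 0 through 21.8% and 16.1% at day 2 to 43.7% and 44.1% at day 4. In all 3 genes the day 4 replicates lay above both day 0 replicates for each nuclease taken alone. 1700020I14Rik (Oip5os1, also known as Cyrano), which is on no list but among the 10 genes with the most sites, went from 15.6% and 14.6% to 28.7% and 26.6%. It lies on the plus strand, while Neat1, Tug1, Firre and Norad lie on the minus strand.

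Malat1 (chr19:5795690-5802672, minus strand), a speckle RNA of 6983 nt, lost nearly all its ssRNase sites between days 2 and 4. With ssRNase, its coverage was 84.7% and 77.2% at day 0, 79.2% and 62.8% at day 2, and 3.59% and 2.58% at day 4. With dsRNase, it was 61.6% and 58.2% at day 0, 45.2% and 70.1% at day 2, and 58.6% and 33.2% at day 4. The ssRNase replicates of day 4 thus lay far below all others, while the dsRNase replicates of day 4 overlapped those of day 2. In numbers, Malat1 had 19 and 16 sites with an ssRNase call at day 0 and 2 in each replicate at day 4, against 10 and 10 with a dsRNase call at day 0 and 16 and 7 at day 4. Over the same days the ssRNase coverage of Neat1, its neighbour on chromosome 19, was higher. Over all ssRNase sites the day 4 sets were not small: 47625 and 48112 PPSs, against 56044 and 50995 at day 0. The highest-scoring lncRNA site of day 2 lay in Malat1 (chr19:5797366-5797955, 590 nt, score 139.6).

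**Figure D2:**
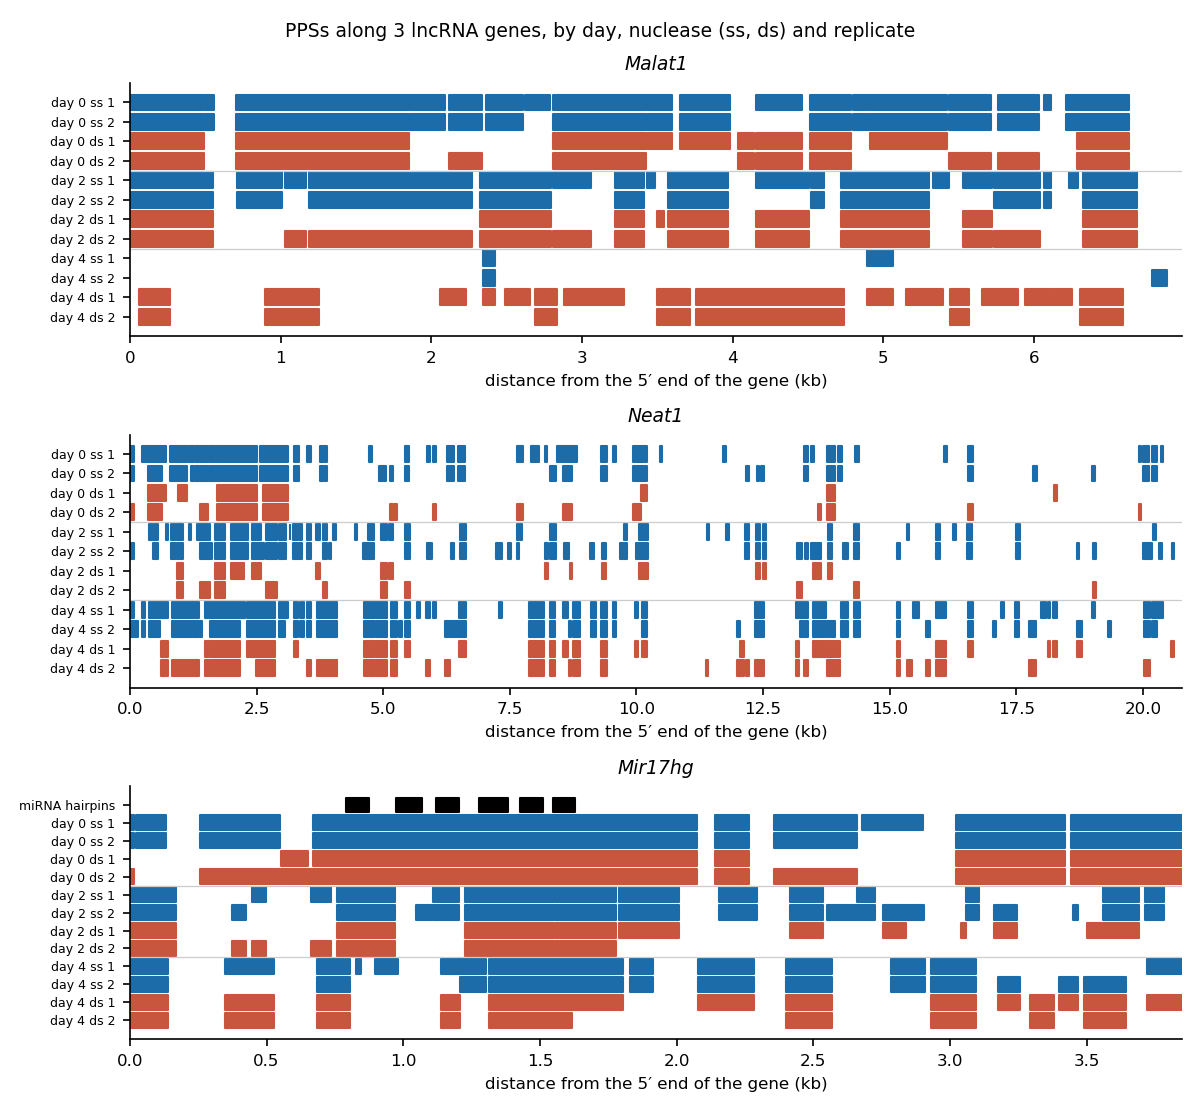
PPSs along Malat1, Neat1 and Mir17hg, drawn by distance from the 5′ end of the gene (x axis, kb) with 1 row for each day, nuclease (blue ssRNase, red dsRNase) and replicate. Black boxes mark the 6 miRNA hairpins of Mir17hg. A row draws the whole merged site wherever its set had a call in it. The blue rows of Malat1 are nearly empty at day 4 (3.59% and 2.58% of the gene). The single long merged site over all Mir17hg hairpins at day 0 is replaced by shorter sites at days 2 and 4.

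In the list of haematopoietic and growth lncRNAs, more genes were lower than higher. Of the 12 haematopoietic and growth lncRNAs that matched the annotation (13 were listed), 7 held a PPS, and at day 4 coverage was lower for 5 (Mir17hg, Gas5, Dleu2, Pvt1 and Mir142hg) and higher for Ttc39aos1 (25.4% and 30.4% of all genes; on the plus strand 29.3% and 25.2%). With dsRNase calls alone 1 gene of the list was lower (17.1% of all genes), without the ssRNase sets of replicate 2 at days 0 and 4 2 genes were (17.4%), and 4 of them (not Dleu2) are plus-strand genes. The list's median went from 15.2% through 10.3% to 14.5%. This list too was drawn up with earlier results of these data known. Gas5 is also counted among the snoRNA hosts below, and Mir17hg, Dleu2 and Mir142hg among the miRNA hosts.

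Pvt1, a lincRNA next to Myc, had 17, 6 and 4 sites at days 0, 2 and 4, and its coverage was 12.3% and 8.69%, then 3.52% and 5.56%, then 4.09% and 1.27%. Both later days lay below day 0. Gas5, a growth-arrest RNA that hosts many box C/D snoRNAs, had 81.0% and 79.9% at day 0, 61.9% and 63.6% at day 2, and 67.9% and 67.0% at day 4. Dleu2, which hosts miR-15a and miR-16-1, had 8.89% and 10.9%, then 7.02% and 7.83%, then 8.71% and 7.98%, so that the day 0 and day 4 values were close. Ttc39aos1, an antisense RNA of 858 nt, had no site at days 0 and 2 and 14.5% in both replicates at day 4, from ssRNase calls only.

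Mir17hg (chr14:115042879-115046727, plus strand), the host of the miR-17-92 cluster, held the highest-scoring lncRNA site of day 0. It spanned 1404 nt (chr14:115043548-115044951, score 316.92), joined 28 calls from all 4 call sets and lay over all 6 hairpins of the cluster. Which hairpins the calls of a single set covered is not known, since a merged site does not give the extent of its calls. The mature miRNAs of these hairpins (RefSeq, GRCm38.p6) are shown with the seed, bases 2 to 8, in capitals. miR-17-5p and miR-20a-5p share a seed, miR-19a-3p and miR-19b-3p share another, and miR-18a-5p and miR-92a-3p have seeds of their own.
miR-17-5p: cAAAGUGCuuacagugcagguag
miR-18a-5p: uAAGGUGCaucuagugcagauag
miR-19a-3p: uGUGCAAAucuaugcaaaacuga
miR-20a-5p: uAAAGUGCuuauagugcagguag
miR-19b-3p: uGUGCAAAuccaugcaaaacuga
miR-92a-3p: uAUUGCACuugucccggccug

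At the later days shorter sites lay over this stretch, and the hairpins differed. A change in how calls were merged into sites cannot be told apart from a change in cover. At day 2, the 7 sites that overlapped the day 0 site left 24.0% of the Mir18 hairpin covered and 96.3% to 100% of the other 5, counting calls of any set. Mir19a was then covered in both ssRNase sets and in neither dsRNase set. At day 4, coverage was 38.1% for Mir17, 9.38% for Mir18, 78.0% for Mir19a (0% in ssRNase replicate 2), 88.8% for Mir20a, 100% for Mir19b-1 and 97.5% for Mir92-1. The 3′ hairpins, of miR-19b-3p and miR-92a-3p, thus lay at 86.3% or more in sites of each of the 4 sets (an upper bound). Those of miR-17-5p and miR-18a-5p did not. Over the whole gene, coverage was 90.0% and 84.2% at day 0, 59.1% and 65.1% at day 2, and 66.5% and 59.9% at day 4, with 11, 24 and 19 sites. In dsRNase calls it was 68.7% and 82.6% at day 0 and 55.1% and 36.2% at day 4. These reads cannot tell a hairpin within the host RNA from a pre-miRNA or a mature miRNA.

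miRNA host genes as a whole did not move in a common direction. Of 113 such lncRNA genes, 17 held a PPS, and at day 4, 4 were higher and 5 lower (30.4% and 25.4% of all genes). Their median went from 4.36% through 9.36% to 9.93%. Ftx, an X-linked host, had 3.57% and 3.82% at day 0 and 0.588% and 1.85% at day 4.

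snoRNA host genes were lower at day 4 in most cases. Of 69 such lncRNA genes, 25 held a PPS, and between days 0 and 4, 16 were lower and 3 higher (25.4% and 30.4% of all genes), and at day 2 14 and 2 (30.2% and 22.1%). Their median coverage was 36.2%, 25% and 21.2% at days 0, 2 and 4, beside 3.14%, 3.26% and 2.16% for all lncRNA genes with a PPS. They also held the most densely covered RNAs: of the 15 lncRNA genes with at least 50% of their exonic length in PPSs at day 0, 7 were snoRNA hosts. The 25 include Cct6a, of which 11 of 13, 9 of 11 and 11 of 13 sites at days 0, 2 and 4 overlapped an exon of a RefSeq mRNA. With dsRNase calls alone 6 of the 25 hosts were lower (17.1% of all genes, 24 of the 326 lncRNA genes). Without the ssRNase sets of replicate 2 at days 0 and 4, 5 were (17.4%, 37 of 326). Both were near the share of all genes but above that of lncRNA genes. The latter setting widens the spread between replicates by construction. In ssRNase replicate 1 the median coverage of the hosts was 27.4%, 20.8% and 11.4% at days 0, 2 and 4. With dsRNase it was higher at day 4 than at day 0 in replicate 1 and lower in replicate 2.

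Among them, Zfas1, the host of Snord12 family members, had a coverage of 35.6% and 39.8% at day 0, 24.3% in both replicates at day 2, and 16.8% and 18.5% at day 4. Both nucleases gave less at day 4: 6.04% and 7.72% against 29.5% and 37.7% with ssRNase, and 15.2% and 10.8% against 23.8% and 23.1% with dsRNase. Snhg5 had 54.1% and 46.8%, then 36.0% and 39.0%, then 36.6% and 33.3%. Snhg17 had 22.1% and 20.6% at day 0, 22.8% and 22.6% at day 2, and 14.01% and 13.1% at day 4. It lies on the minus strand, as does Snhg5. The 3 higher genes were Snhg8 (40.4% and 26.6% at day 0, 52.1% and 46.8% at day 4), Snhg9 (15.3%, then 20.8%, in both replicates) and 9430037G07Rik (3.98%, then 4.09%, in both). Snhg9 and 9430037G07Rik held 1 merged site on each day, so their equal values are not separate measurements. From day 0 to day 4 that site went from 48 to 64 nt in Snhg9 and from 150 to 154 nt in 9430037G07Rik. In the other 6, Snhg6, Snhg12 and Snhg20 among them, the days overlapped. The highest-scoring lncRNA site of day 4 lay in Snhg1 (chr19:8723852-8724360, 509 nt, score 160.27), over the site printed above and the snoRNAs Gm25855 and Gm25894.

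Within these hosts, sites on the snoRNA differed from sites elsewhere. Of 158, 154 and 126 sites at days 0, 2 and 4, 44, 47 and 45 overlapped a snoRNA gene. The sites off the snoRNAs went from 114 to 107 to 81. Sites on a snoRNA had a median score of 46.6, 42.9 and 40.03, against 14.8, 13.9 and 12.2 elsewhere, and a median length of 172, 143 and 140 nt against 76, 64 and 66 nt. Calls of both nucleases were present in 84.1%, 93.6% and 64.4% of them, against 31.6%, 24.3% and 27.2%. A snoRNA and its host share these bases in retained-intron transcripts, so reads of the mature snoRNA count towards the exon.

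**Figure D3:**
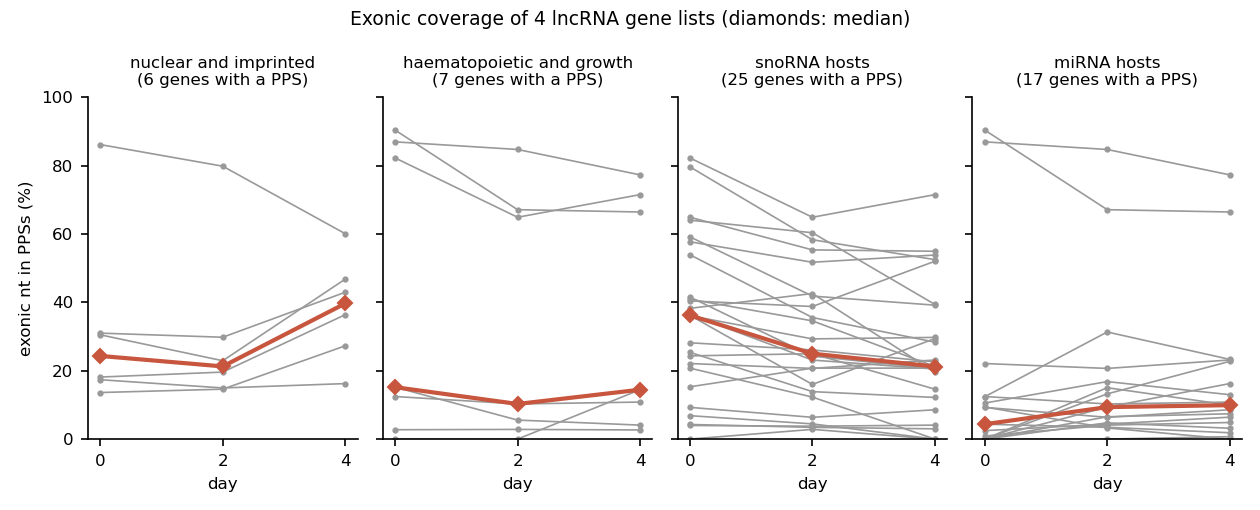
Coverage of exonic nucleotides by PPSs (y axis, %) at days 0, 2 and 4 for each member of the 4 gene lists that held a PPS (grey), with the list median as red diamonds. The median rises from 24.3% to 39.7% for the 6 nuclear and imprinted genes and goes from 36.2% to 21.2% for the 25 snoRNA hosts.

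The largest changes by day 4 were sought among the 101 genes with at least 500 exonic nt and 3 sites on some day. They were ranked by coverage over all calls of a day. Of these 101 genes, 26 were higher and 48 lower. Over all genes, without this filter, 30.4% were higher and 25.4% lower, and shares under the filter were not computed. The largest decreases, beside Malat1 and Mir17hg, were at lincRNAs of unknown function. Gm32122 (chr8:96371727-96403862, minus strand) had 60.4% and 53.4% at day 0, 5.62% and 12.7% at day 2, and 0% and 3.90% at day 4. 1700016F12Rik went from 27.8% and 43.1% through 13.1% in both replicates to no site. Gm32023 (23.1% in both day 0 replicates) and A530010L16Rik (17.4% and 19.02%) had no site at either later day. Ptprv, a transcribed pseudogene of a receptor tyrosine phosphatase that was named after its values had been seen, held 21, 2 and 1 sites, and its coverage was 16.6% and 12.7% at day 0, 0.644% and 1.09% at day 2 and 1.27% in both replicates at day 4.

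By the same ranking the 6 largest increases were at Gm20632, Firre, Tmem250-ps, Gm15265, Norad and Gm20633. Gm20632 and Gm20633 are antisense genes on chromosome 3, on opposite strands (plus and minus) in a histone gene cluster. Neither had a site at day 0; Gm20632 had 7.38% and 10.8% at day 2 and 20.2% and 20.4% at day 4, and Gm20633 had 7.24% and 9.36%, then 15.2% and 14.7%. They share runs of at least 40 nt, and 4 of the 11 sites of Gm20632 lie opposite a protein-coding exon, so this signal cannot be assigned to these genes with certainty. All sites of Tmem250-ps (0%, then 17.5% and 9.38% at day 4) and of Gm15265 (18.7% and 16.2%, then 31.1% and 41.0%) overlapped an exon of a RefSeq mRNA. In dsRNase calls Gm15265 had 0% and 5.34% at day 0 and none at day 4, the reverse direction.

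**Figure D4:**
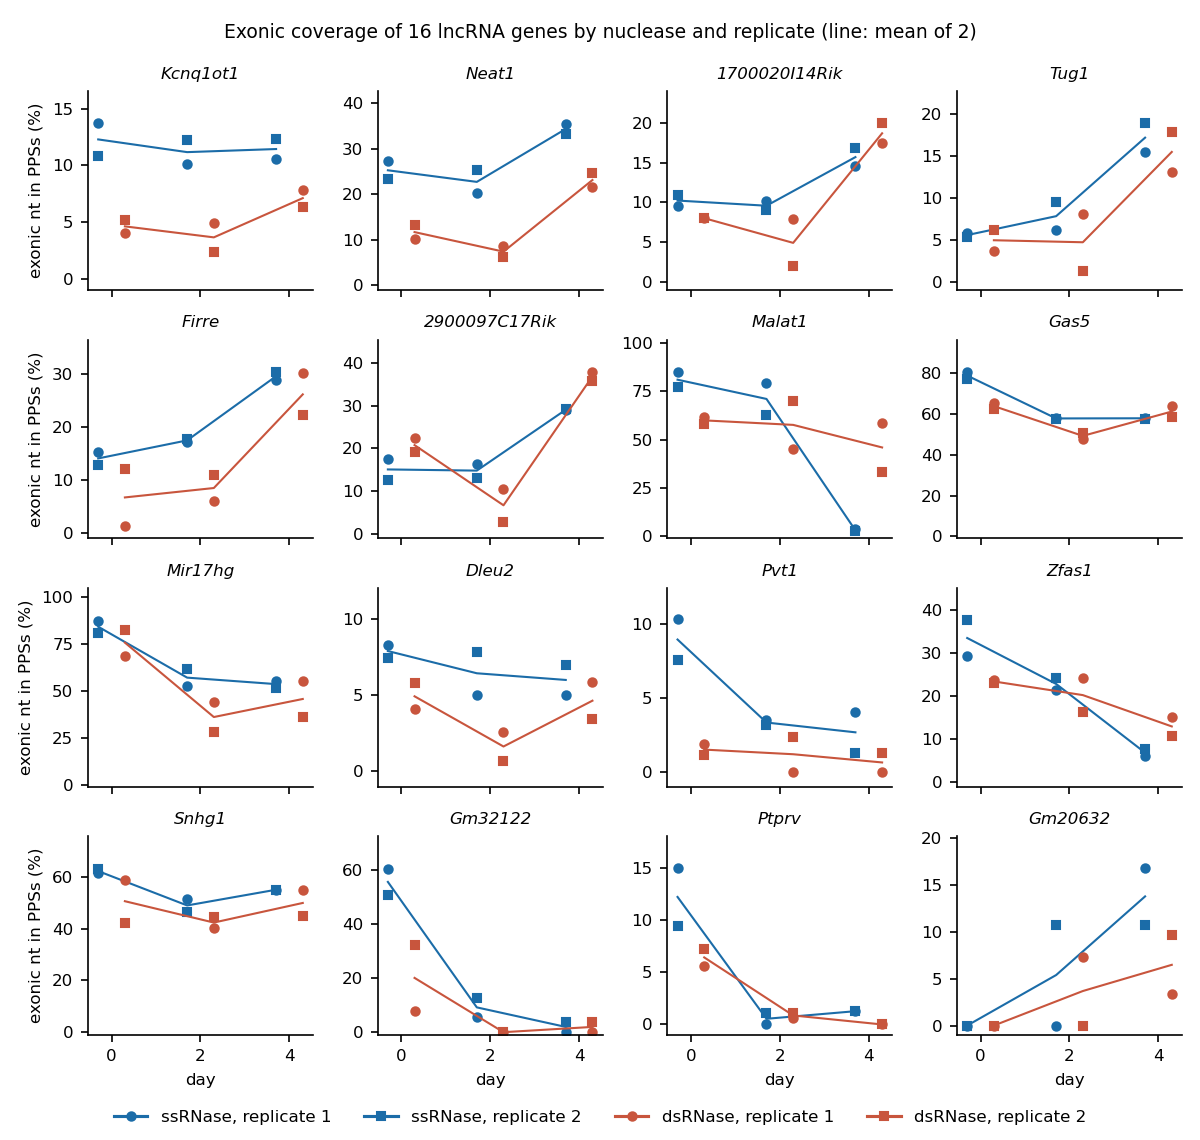
Percentage of exonic nucleotides in PPSs (y axis, a separate scale for each gene) by day (x axis) for 16 lncRNA genes. Points are replicates (circles 1, squares 2), lines the mean of 2, blue ssRNase and red dsRNase. Neat1, Tug1, Firre and 2900097C17Rik stand higher at day 4 with both nucleases, and Malat1 drops from 84.7% and 77.2% to 3.59% and 2.58% with ssRNase.

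Sites on lncRNA exons differed from sites on mRNA exons in the same replicate. Their median length was 80.7 ± 6.28 nt, against 65.2 ± 3.43 nt (SD, n = 6 replicates), longer in 6 of 6. In sites of a single call the difference was 2.67 nt rather than 15.5 nt. Sites made of a single call were fewer, 30.4% ± 4.45 against 44.6% ± 4.34, though by −2.92 rather than −14.2 points at a score of 10 or more. Sites with calls of both nucleases were more frequent, 38.9% ± 4.38 against 28.7% ± 2.26. A lncRNA site was also found at both other days more often, in 56.2% ± 2.88 against 33.3% ± 1.48 of cases. Each of these 4 differences had the same sign in 6 of 6 replicates (exact two-sided permutation p = 0.03125, adjusted p = 0.0391 over 5 measures for length and single calls, and 0.03125 over 2 measures, added after the data had been seen, for the others). Sites of a day are merged across replicates, and presence at other days was read from pooled lists. The 6 replicates are thus not independent, and the p-values are too small. LncRNA sites were also longer and less often of a single call, and the part of this in the last 2 measures was not tested. Mean GC content was 46.8% against 48.6%, and repeats made up 5.72% against 4.87% of the bases (exact permutation p = 0.03125, adjusted p = 0.0391 for both). Both reversed against mRNA sites outside coding sequence (1.16 points more GC, exact permutation p = 0.09375; −0.823 points of repeats, p = 0.03125). The share of sites that ran beyond an exon was 13.1% against 11.5% (1.65 ± 0.98 points, higher in 5 of 6, exact permutation p = 0.0625; 0.476 points at a score of 10 or more, p = 0.406).

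**Figure D5:**
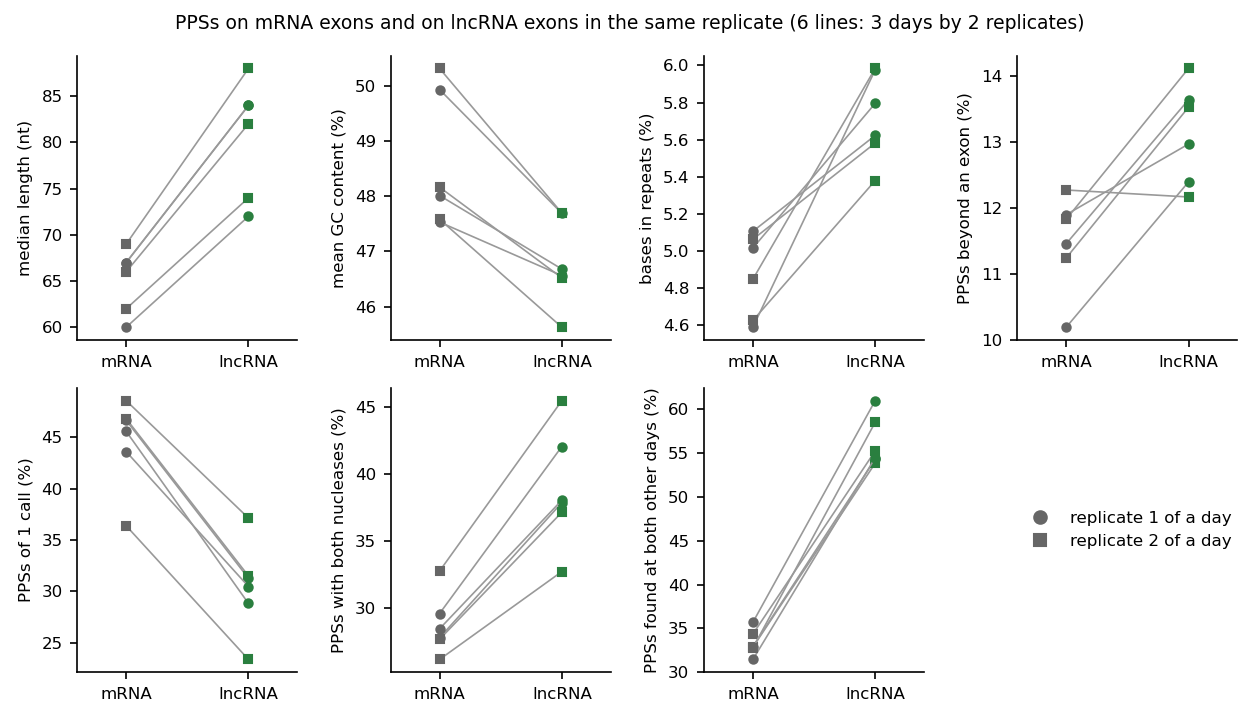
7 measures of PPSs on mRNA exons (grey) and lncRNA exons (green) in the same replicate, joined by a line for each of 6 replicates (3 days by 2); y axes give the median length in nt and percentages. All 6 lines rise for length (65.2 to 80.7 nt on average), for calls of both nucleases and for presence at both other days, and fall for sites of 1 call.

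Most lncRNA sites were met again on another day. Of the day 0 sites, 60.4% (57.4% to 63.4%) overlapped a site of day 2 by at least 1 nt and 60.6% a site of day 4, and 63.2% of the day 2 sites overlapped a site of day 4. The overlap between the 2 replicates within a day was 60.8% to 72.6% (for mRNA exon sites 48.0% to 59.7%), while single replicates of different days overlapped by 54.2% to 63.5%. For day 0, the range was 54.4% to 57.8% with the later days and 64.7% to 65.8% between its own replicates. For day 2 the ranges overlapped (56.3% to 63.5% and 60.8% to 66.9%), and for day 4 they did not (54.2% to 62.2% and 64.1% to 72.6%). For mRNA exon sites of day 0 they were 35.3% to 44.2% and 48.8% to 48.9%. Replicates of a day share merged sites and days do not, so the 2 kinds of overlap are not measured alike. When sites of the 3 days were joined, 1482 lncRNA regions resulted, of which 27.6% (25.4% to 29.9%) were held on all 3 days, against 16.1% of 108176 mRNA regions. Regions of a single day made up 18.96%, 16.3% and 14.9% for days 0, 2 and 4. Day 0 sites held on all 3 days had a median score of 18.1 and a median length of 92 nt, and those of day 0 only 6.82 and 59 nt.

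Sequence words were counted in lncRNA sites and in the rest of the exons of the same genes, on the RNA strand and with overlaps. GGACT, the core of the m6A consensus, occurred 1.499, 1.80 and 1.74 times per kb in sites of days 0, 2 and 4, against 0.909 per kb outside, a ratio of 1.65, 1.98 and 1.91. Homopolymer and U-rich words were rarer in sites: the ratio was 0.58, 0.47 and 0.52 for TTTTT, 0.42, 0.40 and 0.46 for AAAAA, 0.36, 0.42 and 0.41 for CCCCC, and 0.55, 0.49 and 0.56 for TCTTT. An AU-rich word, TATTTAT, had a ratio of 0.28, 0.16 and 0.26 from 6, 3 and 5 occurrences. TAGGG, a word bound by hnRNP A1, had 1.62, 1.62 and 1.39, while GCATG had 1.12, 1.17 and 0.97, and the GU-rich word GTGTG had 0.95, 1.16 and 0.94. Sites also held more G (26.9% against 22.7% at day 0) and less C (19.6% against 22.9%) than the rest of the exons. Against mRNA exon sites, GGACT was no more frequent in lncRNA sites (ratio 0.93, 0.93 and 0.96), while TTTTT (1.79, 1.93 and 1.69) and TAGGG (2.13, 1.80 and 1.76) were. These mRNA sites include coding sequence, and words were not counted against mRNA sites outside it.

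The count of the word TGTANATA rested on a single family of RNAs. Its ratio was 2.14, 1.61 and 1.81, but 17 of 26, 10 of 17 and 13 of 20 occurrences lay in Norad and in Gm7292, a locus that shares sequence with it. Without these 2 genes the ratio was 0.78, 0.69 and 0.67. A Norad site with 2 such words (chr2:156390504-156390581, minus strand of mm10, 78 nt, score 38.33 at day 0, calls of both nucleases in both replicates) is printed with the words in capitals. It was chosen after the word counts were known.
Norad: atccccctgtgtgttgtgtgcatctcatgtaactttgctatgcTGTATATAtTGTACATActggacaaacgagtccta

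Shared sequence limits the assignment of some sites to a gene. Of the 3023 sites, 109 (3.61%) held a run of at least 40 nt that also occurs in a site of another lncRNA gene. Norad with 30 sites and Gm7292 with 31 made up most of these. Coverage of Gm7292 was 35.5% and 32.1% at day 0 and 29.1% and 26.4% at day 4, lower where Norad was higher.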

How the data were processed

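PIP-seq was carried out on MEL cells at 3 days with 2 replicates, as 24 libraries. According to the methods of the study, adapters were removed with cutadapt 1.2.1, reads were aligned to mm10 with TopHat2 2.0.10 allowing up to 10 placements, and PPSs were called by comparing protein-bound with structure-only libraries at a false discovery rate of 5%. The deposited lists give, for each day, merged PPSs with call names and a score (lowest 5.4) whose scale is not given in the sources used here. Read counts per site are not in the lists, so depth is unknown and intervals (95%) cover counting error only.

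PPSs of 20 to 40 nt (104345 of 460777; 538 on lncRNA exons) were left out after the study's own filter. Sites were assigned by overlaps of 1 nt or more on the same strand with GENCODE M21 exons. Groups followed the labels, and call names gave nuclease and replicate. Days were compared without a test (2 against 2). Nucleases, and lncRNA with mRNA sites, were compared with exact two-sided sign-flip permutation tests over 6 replicates, with the replicate as a block, since the series' design states that each cross-linked replicate was split between nucleases. Genes named were the 10 with the most sites, the 6 largest rises and falls by day 4 (500 exonic nt and 3 PPSs or more, replicates not overlapping), list members with a PPS, and genes of the highest-scoring site of each day. Sites were the highest-scoring of each day and the 5 highest constant ones of at most 300 nt, with chromosome 18 left out for the latter. Members, lists and tests were chosen with earlier results of these data known. Alternatives were other lengths, overlaps, scores, gene types, strands, nucleases and replicates. The overlap and coverage code was tested on simulated data. Python 3.11.15, pandas 2.3.3, NumPy 2.4.6, SciPy 1.17.1 and Matplotlib 3.10.9 were used.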

Additional observations from a re-analysis of the deposited data

Results flagged for a closer look

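The dsRNase minus ssRNase difference in the share of PPSs on lncRNA exons was 0.191 percentage points in day 2 replicate 2, where it was negative in the other 5 replicates (highest −0.164, lowest −0.356). This replicate stood apart by Dixon's gap test at the 95% level over 6 replicates (ratio 0.650). It was the only 1 of 21 groups tested to do so, and chance alone gives about 1 in 20. The dsRNase set of this replicate was the smallest of the 12, with 14832 PPSs, 175 of them on lncRNA exons, and the part of its size in the difference was not tested.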

How the results depend on the processing

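The direction of the day 4 difference in the lncRNA share held under every alternative run, and its size depended on the sites counted. The share at days 0, 2 and 4 was 0.836%, 0.768% and 0.720% with sites of 20 to 40 nt kept, 0.876%, 0.831% and 0.760% with at least 50% of the site inside lncRNA exons, 0.980%, 0.955% and 0.877% with more gene types, 1.10%, 1.07% and 0.995% without excluding protein-coding gene bodies, 1.27%, 1.16% and 1.08% (602, 595 and 595 sites) at a score of 10 or more, 0.743%, 0.721% and 0.647% without Kcnq1ot1, 0.863%, 0.812% and 0.737% without RefSeq mRNA exons (added after seeing the data), and 1.42%, 1.30% and 1.13% (503, 480 and 494 sites) where calls of both replicates were required. Without either replicate of a day the shares were 1.02% to 1.03%, 0.951% to 0.979% and 0.868% to 0.884%, with 765 to 777, 718 to 789 and 680 to 771 sites.

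The day 0 to day 2 difference in points was −0.0680 with sites of 20 to 40 nt, −0.0250 with more gene types, −0.113 at a score of 10, −0.0226 without Kcnq1ot1, 0.0102 on the plus and −0.177 on the minus strand, −0.117 with both replicates, −0.0934 with ssRNase and 0.0157 with dsRNase calls. The day 0 to day 4 difference was −0.103 with more gene types, −0.108 without the exclusion, −0.189 at a score of 10, −0.0967 without Kcnq1ot1, −0.0847 on the plus and −0.245 on the minus strand, −0.290 with both replicates, −0.0468 with ssRNase and −0.182 with dsRNase calls. Leaving out 1 replicate gave −0.169 to 0.0749 for day 2 and −0.245 to −0.0198 for day 4. These values set the share of a single replicate against the pooled share of the other day, and pooled shares were lower on every day. Between single replicates the differences were −0.0777 to −0.0441 for day 2 and −0.161 to −0.139 for day 4. The strand settings were added after seeing the data, and the cause of the shifts under the other settings was not tested.

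The dsRNase minus ssRNase share, −0.181 points with the replicate block, had an exact permutation p of 0.0281 with no replicate block, and was −0.241 (exact permutation p = 0.03125) in sites of a single call, −0.118 (exact permutation p = 0.1875) without Kcnq1ot1, −0.0231 (exact permutation p = 0.594) on the plus and −0.390 (exact permutation p = 0.0625) on the minus strand. Leaving out 1 replicate gave −0.255 to −0.146 (exact permutation p 0.0625 to 0.1875). The beyond-exon difference between lncRNA and mRNA sites, 1.65 points, had an exact permutation p of 0.00433 with no replicate block. It was 8.997 points against mRNA sites outside coding sequence, 4.43 without Kcnq1ot1 and 1.86 without snoRNA and miRNA overlaps (exact permutation p = 0.03125 for each), but 0.476 (exact permutation p = 0.406) at a score of 10 or more and 1.36 (exact permutation p = 0.281) in sites of a single call. The length difference was 2.67 nt in sites of a single call, and the single-call difference −2.92 points at a score of 10 or more. Against mRNA sites outside coding sequence the GC difference was 1.16 points and the repeat difference −0.823. Leaving out 1 replicate gave 14.8 to 16.2 nt for length, −1.96 to −1.63 for GC, 0.742 to 0.916 for repeats, 1.53 to 2.01 for beyond-exon and −14.7 to −13.6 for single-call shares. With 5 replicates the smallest exact p is 0.0625. The block changed no other call.

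The overlaps of day 0 with day 2, day 0 with day 4 and day 2 with day 4 were 42.2%, 39.7% and 40.5% where at least 50% of both sites had to overlap. At a score of 10 those of day 0 and of day 2 with the next day were 59.3% and 66.1%, and with both replicates required those of day 0 were 55.1% and 55.9%. Leaving out 1 replicate, with the other day pooled, gave 49.9% to 66.3%, 49.3% to 66.4% and 52.5% to 71.6%. Genes higher and lower at day 2 numbered 10 and 32 with dsRNase calls and 20 and 44 among longer genes with 3 sites, and at day 4 37 and 24, and 26 and 48. Over all genes the day 4 shares with dsRNase calls were 26.7% and 17.1%. For the other counts of this kind no matched share over all genes was computed. Leaving out 1 replicate, which loosens the rule, gave 64 to 112 and 80 to 128 at day 2, and 72 to 95 and 86 to 136 at day 4. Without the ssRNase sets of replicate 2 at days 0 and 4 (added), 62 were higher and 27 lower at day 2, where calls are removed from day 0 alone, 27 higher and 37 lower at day 4, and 2 haematopoietic genes and 5 snoRNA hosts were lower. Replicate 2 then holds dsRNase calls only, which widens the spread between replicates by construction. Neat1 (10.8 points, against 11.5 with all calls), Malat1 (−26.3 against −37.4), Gas5 (−8.66 against −13.0), Dleu2 (−1.27 against −1.56) and Gm15265 (3.54 against 18.6) overlapped between days. With dsRNase calls 1 haematopoietic gene and 6 snoRNA hosts were lower, and Gm15265 changed by −2.67 points. Word ratios against mRNA sites, as means of 3 days, were 0.941 for GGACT, 1.81 for TTTTT, 1.27 for CCCCC, 1.29 for TCTTT and 1.18 for AAAAA, and TGTANATA was 0.715 without 2900097C17Rik and Gm7292. Read depth per site is unknown, so sites missing in a set may be below detection.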
